A study of Mus musculus with 6 samples.

Results

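The 10 genes described here, Tyrobp, Trem2, Fcer1g, Cd68, Apoe, Lpl, Itgax, Cst7, Spp1 and Mmp12, are genes of activated, phagocytic microglia and macrophages, the cells that engulf dying neurons and debris in the brain. They were taken by name from a table of read counts with 23420 rows, and all 10 were found in it. The libraries hold ribosome-bound RNA from cerebellar Purkinje neurons of C57BL/6 mice at 4 weeks of age, purified by BacTRAP, a pull-down of tagged ribosomes together with the RNA bound to them. There were 3 control animals with the genotype Pcp2-BacTrap and Rbm17 f/+, which carry 1 floxed and 1 wild-type Rbm17 allele and no Cre. The other 3 animals were conditional knockouts (cKO) with the genotype Pcp2-BacTRAP, Pcp2-Cre and Rbm17 f/-, which carry a floxed and a deleted allele. The Purkinje promoter Pcp2 drives both the ribosome tag, which both groups carry, and the Cre recombinase, which only cKO carries, and each library came from 1 cerebellum. RBM17 is a splicing factor, and the series compares transcripts and splice junctions with and without it, and Cre and the deleted allele cannot be told apart in it.

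Microglia are the resident phagocytes of the brain. In the resting state they express a homeostatic set of genes, and around dying neurons, damaged myelin or amyloid they shift to a disease-associated state in which TREM2, signalling through the adaptor TYROBP, drives genes of phagocytosis, lysosomal digestion and lipid handling. The 10 genes were listed as phagocyte genes, and their expression in Purkinje cells was not measured apart from that in other cells. The tag is expressed under a Purkinje promoter, so the levels below are those of RNA that came down with the tagged ribosomes, whichever cell it came from. In such bulk RNA more cells of a type and more RNA per cell cannot be told apart.

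Of the 10 genes, 8 rose in cKO, 0 fell, and Apoe and Spp1 did not pass the test. Among all 16067 genes tested with edgeR's quasi-likelihood test, 4.03% rose at an adjusted p under 0.05 and 3.85% fell, 7.87% in all. All 3 cKO libraries were above all 3 control libraries for those 8 genes, which was so for 15.0% of all genes tested, and 13.4% lay below in the same way. The 8 log2 fold changes of cKO over control ran from 1.34 for Fcer1g to 8.77 for Mmp12. The median over the 10 genes was 2.36, beside 0.01 over all genes tested. All 10 passed the filter on low counts, but Itgax, Cst7 and Mmp12 passed it only through the cKO libraries, so for these genes a difference was built into being tested.

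The targeted gene followed its labels. Rbm17 stood at 41.2, 42.5 and 41.3 counts per 1000000 counted reads (CPM) in the control libraries and at 25.7, 25.6 and 26.3 in the cKO libraries, a log2 fold change of -0.69 (SE 0.09, edgeR adjusted p = 0.0016). Libraries held between 140110897 and 160571518 counted reads. Purkinje markers were abundant in every pull-down, with summed levels of 31708 to 43078 CPM in control and 19355 to 22456 CPM in cKO for 15 genes. Of these markers 8 fell and 0 rose.

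Both adaptor genes, Tyrobp and Fcer1g, rose, by different amounts. They encode small membrane proteins that carry an immunoreceptor activation motif and pass signals from receptors that lack one. Tyrobp was at 0.336, 0.876 and 1.13 CPM in control and at 8.82, 4.52 and 5.06 CPM in cKO. The groups were far apart, with cKO 1 well above the other cKO libraries. The mean ± SD over 3 libraries was 0.781 ± 0.41 CPM in control and 6.14 ± 2.3 CPM in cKO, and the log2 fold change was 2.97 (SE 0.44, edgeR adjusted p = 0.0030). Fcer1g, the shared gamma chain of Fc receptors, was at 3.13, 4.06 and 3.64 CPM in control and 11.3, 7.14 and 8.996 CPM in cKO. It had the highest control level of the genes that rose and the smallest change, with a log2 fold change of 1.34 (SE 0.21, edgeR adjusted p = 0.0039). The call of both genes was kept in all 15 other settings and sample sets tried.

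Trem2 encodes the lipid-sensing receptor that relies on the TYROBP adaptor. It was at 0.909, 0.939 and 2.098 CPM in control and at 7.10, 3.85 and 3.93 CPM in cKO. The groups did not overlap, with control 3 the highest control library and cKO 1 well above the other cKO libraries. The log2 fold change was 1.91 (SE 0.39, edgeR adjusted p = 0.015). It was no longer called without control 2 (adjusted p = 0.066) or without cKO 1 (adjusted p = 0.064), with log2 fold changes of 1.71 and 1.56.

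Cd68, a glycoprotein of the lysosomal membrane that is the usual stain for phagocytic activity, was at 1.73, 3.82 and 2.26 CPM in control and at 10.8, 7.53 and 10.6 CPM in cKO. Here cKO 1 and cKO 3 were alike and cKO 2 lower, while control 2 was the highest control library. Its log2 fold change was 1.89 (SE 0.29, edgeR adjusted p = 0.0037), and the call was kept in all 15 other settings and sample sets.

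**Figure D1:**
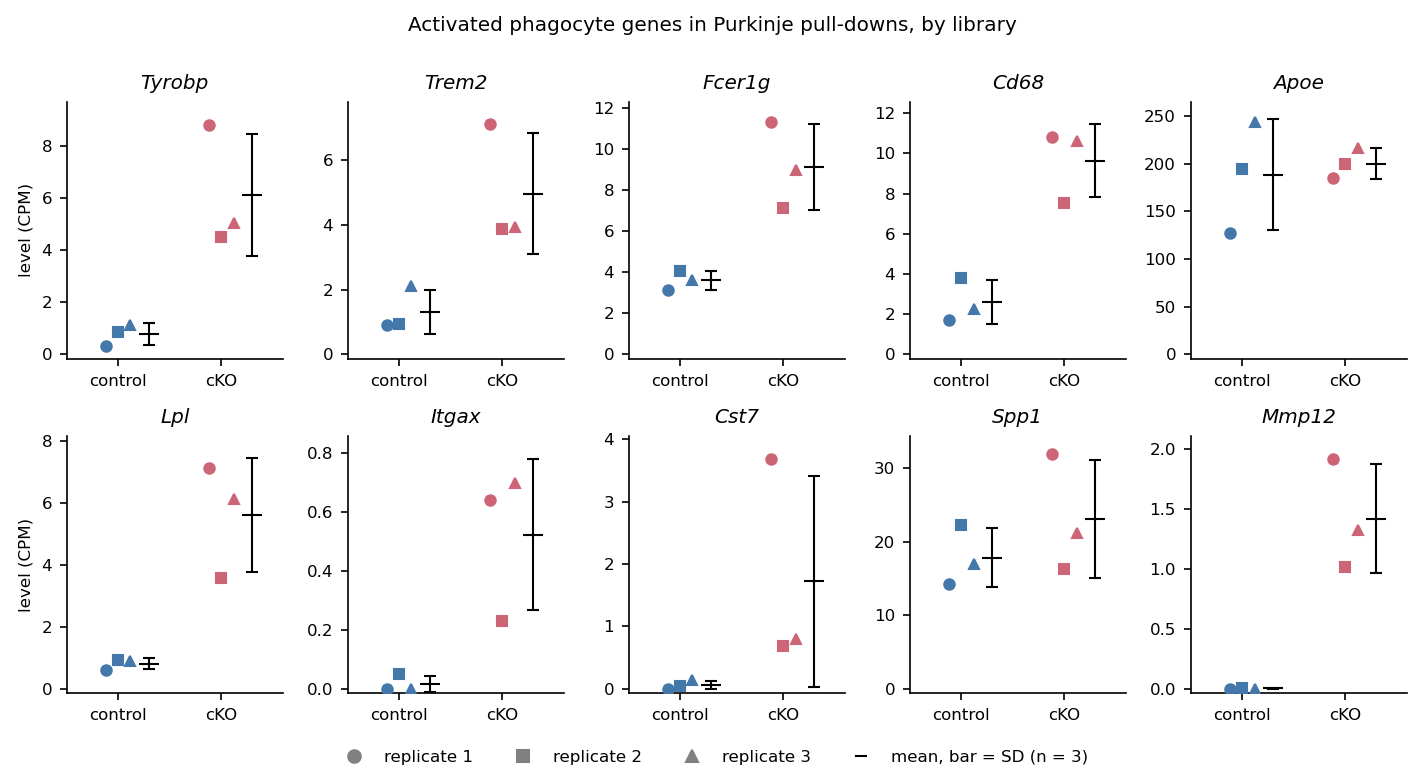
Levels of the 10 genes in CPM (linear axes that start near 0 and differ by gene) in each control and cKO library, with replicate numbers as symbols and the mean with its SD beside them. For 8 genes every cKO library lies above every control library, while the groups overlap for Apoe and Spp1.

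The lipid genes parted. Lpl, the lipase that releases fatty acids from lipoproteins, was at 0.603, 0.925 and 0.887 CPM in control and at 7.13, 3.57 and 6.12 CPM in cKO. Its control libraries lay close together, and the cKO libraries were all several-fold higher. The log2 fold change was 2.80 (SE 0.32, edgeR adjusted p = 8.8e-04), and it was called in all 15 other settings and sample sets. Apoe encodes the main apolipoprotein of the brain, which astrocytes make in bulk and microglia raise in the disease-associated state. It was at 127.7, 194.1 and 243.7 CPM in control and at 185.0, 199.3 and 216.7 CPM in cKO. The cKO values lay inside the control range. The log2 fold change was 0.09 (SE 0.19, edgeR adjusted p = 0.84), and it was -0.13 without control 1, the lowest library. Apoe held 80.9% of all counts of the 10 genes, so any sum over them is mostly Apoe.

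Itgax, Cst7 and Mmp12 were near the limit of detection in control. Itgax encodes the integrin alpha chain CD11c, a marker of microglia that clear myelin and amyloid. In control it was counted 0, 7 and 0 times, and in cKO 104, 34 and 114 times. A gene count of 0, taken as fewer than 3 reads, allows a level of up to 0.0216 CPM in control 3. Control 1 had 4 spliced reads, all over 1 Itgax intron, which its gene count of 0 does not hold, so no limit is given for it. The cKO levels were 0.641, 0.231 and 0.700 CPM, and the pooled counts scaled to depth stood at a ratio of 31.5 (95% exact interval 15.1 to 79.1, counting error only). The fitted log2 fold change was 4.91 (SE 1.25, edgeR adjusted p = 0.039). The call was lost in 5 of the 6 fits that left out 1 library, the exception being control 2, the only control library with a gene count above 0. Adjusted p was 0.083 without control 1, 0.09 without control 3, and 0.11, 0.062 and 0.13 without cKO 1, cKO 2 and cKO 3, so Itgax was called on the full set of libraries and rarely on fewer.

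Cst7 encodes cystatin F, an inhibitor of lysosomal cathepsins that is among the most specific genes of disease-associated microglia. In control it was counted 0, 6 and 19 times, and in cKO 597, 101 and 130 times. The library cKO 1 stood apart, at 3.68 CPM against 0.685 and 0.798 CPM in cKO 2 and cKO 3. Pooled counts were at a ratio of 29.0 (95% exact interval 19.5 to 45.0, counting error only, not the spread between animals). The fitted log2 fold change was 4.83 (SE 1.07, edgeR adjusted p = 0.023). Without cKO 1 the log2 fold change was 3.61 and not called (adjusted p = 0.13), nor was it without control 2 (4.62, adjusted p = 0.088) or by limma-voom (5.44, adjusted p = 0.1).

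Mmp12, the macrophage metalloelastase, a secreted protease that digests extracellular matrix, had the largest change of the 10. The control libraries counted it 0, 1 and 0 times and the cKO libraries 310, 150 and 215 times, which in cKO is 1.91, 1.02 and 1.32 CPM. Only 1 read in 3 control libraries belonged to it. The ratio of pooled counts was 591, with a 95% exact interval from 106 to 23361 that the single control read sets. The fitted log2 fold change was 8.77 (SE 0.87, edgeR adjusted p = 4.2e-04) and was called in all 15 other settings and sample sets.

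Spp1 encodes osteopontin, a secreted phosphoprotein that binds integrins and CD44. It was at 14.2, 22.2 and 17.0 CPM in control and at 31.8, 16.2 and 21.2 CPM in cKO. Only cKO 1 lay above the control range. The log2 fold change was 0.37 (SE 0.23, edgeR adjusted p = 0.40) with all libraries and 0.07 without cKO 1. A second annotated transcript, Gm42793, overlaps Spp1 on the same strand, so its reads may be shared with that model.

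The libraries were not alike within a group. Control 1 was the lowest control library for all 10 genes, with ties at 0 for Itgax and Mmp12. In cKO, replicate 1 was the highest for 8 of the 10 genes and replicate 2 the lowest for 9. Among the genes that rose, cKO 1 stood at 1.19 to 4.97 times the mean of the other cKO libraries, with Cst7 at the upper end. Summed levels of 18 homeostatic microglial genes moved the same way, at 1.45 times in cKO 1, as did border macrophage markers, at 1.22 times, while astrocyte markers were at 0.880 times. The part of these differences between libraries in the results above was not tested. With control 1 and cKO 1 both left out, 5 of the 10 genes were called, Tyrobp, Fcer1g, Cd68, Lpl and Mmp12.

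**Figure D2:**
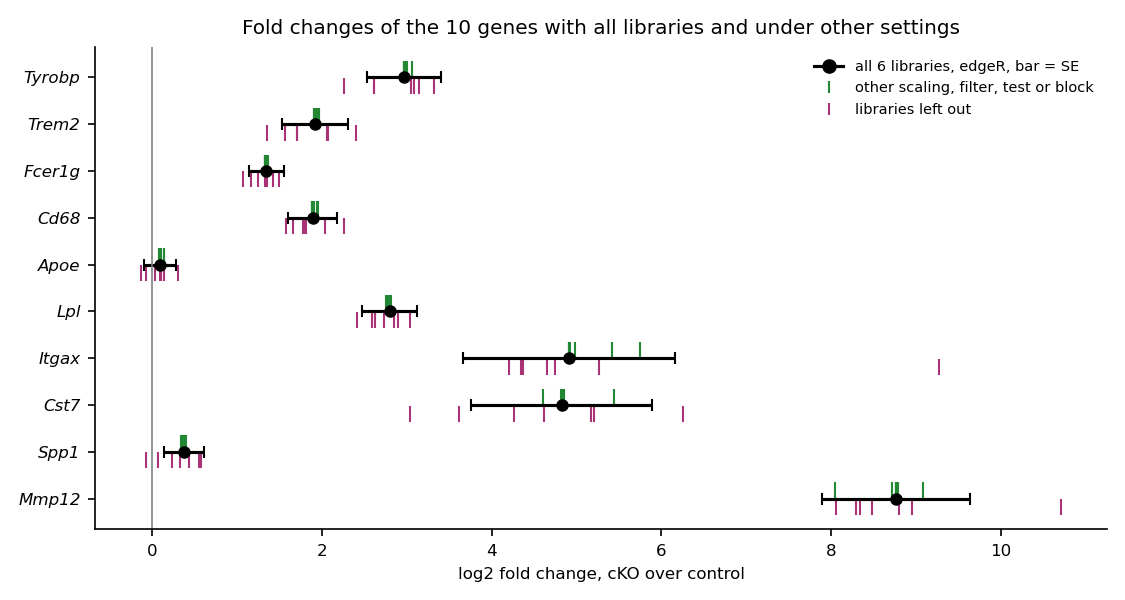
Log2 fold changes of cKO over control for the 10 genes. Black points with SE bars are the edgeR values with all 6 libraries, green ticks are other scalings, filters and tests, and purple ticks are fits with libraries left out. Mmp12 stays farthest from 0. The values of Apoe spread around 0, and those of Spp1 run from -0.069, with control 1 and cKO 1 both left out, to 0.57.

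Levels of different genes were set side by side per kilobase of merged exon. In control the order was Apoe at 88.2 CPM per kilobase, Spp1 at 10.8, Fcer1g at 4.13, Cd68 at 2.07, Tyrobp at 1.17, Trem2 at 0.266, Lpl at 0.0768, Cst7 at 0.0604, Itgax at 0.00338 and Mmp12 at 0.00032. The ranges of Cd68 and Tyrobp overlapped, as did those of each neighbouring pair from Lpl down to Mmp12. In cKO, Apoe stayed first at 93.7 CPM per kilobase. It was followed by Spp1 at 14.0, Fcer1g at 10.5, Tyrobp at 9.20 and Cd68 at 7.68, each of which overlapped its neighbour. Then came Cst7 at 1.75 and Trem2 at 1.00, which overlapped, Lpl at 0.535, and Mmp12 at 0.196 and Itgax at 0.109, which overlapped as well. Cst7 thus went from the lower end to the level of Trem2, and Tyrobp from below Spp1 and Fcer1g to within their range.

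Reads that span splice junctions gave a second count from the same libraries. The 5 junctions that follow are the most read ones of genes that were low in control, each 40 bases of the spliced transcript in the transcript's own 5′ to 3′ direction, with the end of the upstream exon in lower case and the start of the downstream exon in capitals.
Tyrobp exons 4 and 5: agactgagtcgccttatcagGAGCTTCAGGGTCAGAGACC
Lpl exons 7 and 8: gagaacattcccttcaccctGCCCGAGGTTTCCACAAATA
Itgax exons 26 and 27: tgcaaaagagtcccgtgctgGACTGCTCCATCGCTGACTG
Cst7 exons 3 and 4: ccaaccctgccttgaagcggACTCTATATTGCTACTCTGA
Mmp12 exons 8 and 9: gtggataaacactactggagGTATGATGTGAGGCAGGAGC
Over these joins, the control libraries read Tyrobp 8, 58 and 64 times and the cKO libraries 579, 283 and 331 times. For Lpl the control libraries gave 2, 19 and 21 reads and the cKO libraries 150, 58 and 134. Cst7 had 0 reads in each control library and 149, 24 and 29 in cKO, and Mmp12 had 0 in each control library and 43, 27 and 48 in cKO. These joins were thus read in every cKO library, and the Cst7 and Mmp12 joins in no control library. Itgax was read 0, 2 and 0 times over its join in control and 12, 1 and 37 times in cKO, so its join was seen once in cKO 2.

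In mm10 coordinates and the GENCODE annotation of that build, Tyrobp lies on chromosome 7 from 30413760 to 30417585 and the intron of its printed join runs from 30415676 to 30417343. Lpl lies on chromosome 8 from 68880491 to 68907448, with the intron of its join from 68899538 to 68901147. Itgax is on chromosome 7 from 128129547 to 128150657, with that intron from 128148314 to 128148500. Cst7 is on chromosome 2 from 150570415 to 150578944, with that intron from 150577773 to 150578419. Mmp12 is on chromosome 9 from 7344381 to 7369499, with that intron from 7355472 to 7357804. All 5 genes lie on the plus strand, and the Mmp12 locus overlaps Mmp1b on the opposite strand.

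Trem2 lies on chromosome 17 from 48346401 to 48354147 and Spp1 on chromosome 5 from 104435118 to 104441050, both on the plus strand. The genes on the minus strand were Fcer1g, on chromosome 1 from 171229572 to 171234365, Cd68, on chromosome 11 from 69664213 to 69666153, and Apoe, on chromosome 7 from 19696109 to 19699188. Over all 10 loci, 1 junction read ran on the strand opposite to the gene, in Apoe, so the spliced reads at these loci came almost wholly from the genes' own strand.

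Spliced reads over each gene's own annotated introns, per 1000000 junction reads of the library, ordered the groups as the gene counts did, with cKO above control in every library for 8 of the 10 genes. Of 14342 tested genes with spliced reads, 19.1% lay above in the same way. The 8 genes include Itgax, Cst7 and Mmp12, which passed the filter only through the cKO libraries. Tyrobp went from 1.76 ± 0.88 to 15.6 ± 6.5 (SD, n = 3). Cd68 went from 4.28 ± 2.3 to 18.3 ± 3.3, and Mmp12 from 0.00427 to 2.49 ± 0.55. Apoe, at 122.2 ± 43 and 136.2 ± 14, and Spp1, at 19.3 ± 3.7 and 28.2 ± 12, overlapped here too. Itgax was at 0.0691 ± 0.078 in control and 1.39 ± 0.81 in cKO, with the 4 spliced reads of control 1 named above.

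The reads were spread along the transcripts. Mmp12 had spliced reads over 9 annotated introns in a row in cKO, from 9 reads over the first to 118 over the eighth, against 1 read in all control libraries. Tyrobp was read more towards its 3′ end in cKO, from 682 reads over the first of its 4 introns to 1193 over the last. Control 2 and control 3 went the same way, from 16 to 58 and from 28 to 64 reads, but control 1 went from 20 to 8. Lpl had 36 reads over the first and 342 over the seventh intron in cKO, while control 1 had 9 over the first and 2 over the last. Control 1, the lowest control library for all 10 genes, thus lacked the 3′ slope of the others in both genes, and the part of this in the results was not tested. The Itgax reads of cKO 3 were uneven, with 31, 38 and 37 reads over 3 neighbouring introns near the 3′ end.

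**Figure D3:**
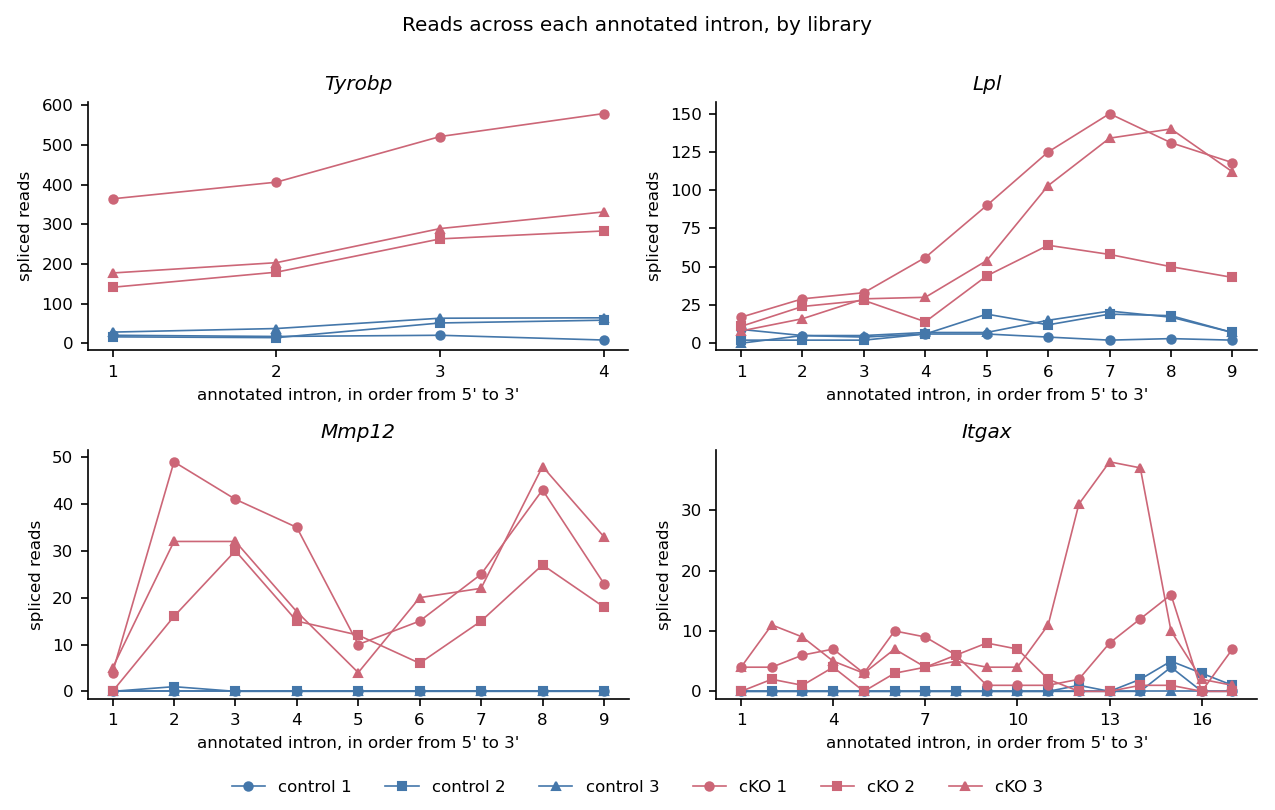
Spliced reads (linear axis) over the annotated introns of Tyrobp, Lpl, Mmp12 and Itgax that had at least 5 reads over the 6 libraries, in order from the 5′ to the 3′ end, 1 line per library. The cKO lines lie above the control lines along most of each gene, and the Itgax line of cKO 3 has a peak that the other libraries lack.

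None of the splice choices that could be tested passed the test. A junction was tested against those that share its donor or acceptor site, and 0.751% of 112047 junctions tested over the genome changed by edgeR's diffSpliceDGE (adjusted p under 0.05 and at least 5 percentage points). Of the 10 genes, Apoe, Fcer1g, Spp1 and Trem2 had 9 such junctions, and 0 of them changed, with 0 also at an unadjusted p under 0.05. In Fcer1g the cluster of linked junctions held neighbouring introns of the same transcript. They were linked only by the unannotated junction from 171231032 to 171234196, which skips the exon between them. That junction took 0.290 ± 0.50% of the cluster in control and 0.185 ± 0.32% in cKO. Trem2 used an alternative acceptor, over the intron from 48351192 to 48351690, at 11.4 ± 10% in control and 16.4 ± 14% in cKO, a spread too wide to place a change of that size. The other 6 genes had no pair of competing junctions that both passed the minimum of reads and of libraries.

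Junctions absent from the annotation were rare in the 10 genes. There were 23, with 100 reads in all against 96826 reads on the genes' own introns, or 0.103%. Only 3 had at least 10 reads. A Trem2 junction from 48351931 to 48351994 had 22 reads, all in control 3. A Cd68 junction from 69664552 to 69664750 had 11 reads, all in cKO 3, and an Fcer1g junction from 171231032 to 171234196 had 4 reads in control 2 and 6 in cKO 3. None of the 3 was read in more than 1 cKO library.

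The promoters were searched for the letters of 2 motifs of macrophage gene control, the purine box GAGGAA that the myeloid factor PU.1 binds and the AP-1 element TGANTCA, on both strands within 250 bases upstream of the start. RefSeq sequences of build GRCm38.p6 were at hand for 8 of the 10 genes, all but Tyrobp and Lpl. GAGGAA occurred in 5 of the 8, Trem2, Cd68, Apoe, Spp1 and Mmp12, and in 23.3% of all 32851 promoters. TGANTCA occurred in 3 of the 8, Trem2, Cd68 and Itgax, and in 6.75% of all promoters. The motifs were chosen after the sequences were seen, do not overlap each other in these windows, and a match is a description only. The windows below show genes that rose and Spp1, which did not pass the test, with the matched letters in capitals and each sequence 5′ to 3′ on the gene's strand.
Mmp12, chr9:7344291-7344336, plus strand: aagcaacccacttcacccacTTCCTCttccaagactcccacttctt
Cd68, chr11:69666370-69666415, minus strand: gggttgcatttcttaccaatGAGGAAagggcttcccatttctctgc
Cd68, chr11:69666293-69666339, minus strand: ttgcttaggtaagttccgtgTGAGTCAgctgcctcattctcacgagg
Itgax, chr7:128129474-128129520, plus strand: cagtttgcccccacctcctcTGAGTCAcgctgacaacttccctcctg
Spp1, chr5:104434978-104435023, plus strand: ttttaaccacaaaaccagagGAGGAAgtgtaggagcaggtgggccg
In Mmp12 the match lies on the opposite strand and is read as TTCCTC. Both a gene that rose (Mmp12) and one that did not pass the test (Spp1) carried the purine box.

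The 10 genes were also set against the resting microglial genes in the same library. Of 18 homeostatic genes, 5 rose in cKO and 0 fell, with a median log2 fold change of 0.64 and a summed level of 78.0 to 103.6 CPM in control and 116.2 to 186.2 CPM in cKO. Fcrls (an Fc receptor-like gene of microglia, log2 fold change 2.08), C1qc (1.36) and C1qb (1.36), both chains of complement C1q, were among those called. The other 13 were not called. They ran from Mertk at -0.71, lower in every cKO library, over P2ry12 at -0.02 to Aif1 at 1.86, so the list did not move as a whole. Without cKO 1, cKO 3, control 1 or control 2, 3 of the homeostatic genes were called.

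As a percent of the summed homeostatic counts of the same library, 8 of the 10 genes were higher in every cKO library than in every control library. That was so for 2.71% of all genes tested, and 8380 of the 16067 genes lay lower in every cKO library on this scale, whose denominator was itself higher in cKO. Itgax, Cst7 and Mmp12 are among the 8. They were near the limit of detection in control and passed the filter only through cKO, so for them a difference was built in on this scale too. Tyrobp was at 0.431, 0.879 and 1.09% in control and at 4.74, 3.89 and 3.58% in cKO, well apart even on this scale. Fcer1g was at 3.87 ± 0.31% and 6.20 ± 0.15%, with cKO 1 no longer the highest library. Mmp12 went from 0.00233% to 0.945 ± 0.076%, and its cKO libraries lay close together at 1.03, 0.875 and 0.934%. Cst7 kept its spread, with 1.98% in cKO 1 against 0.589 and 0.565% in the others. Apoe, at 197.9 ± 36% and 141.4 ± 38%, and Spp1, at 19.0 ± 3.0% and 15.4 ± 1.6%, had lower means in cKO with overlapping libraries.

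**Figure D4:**
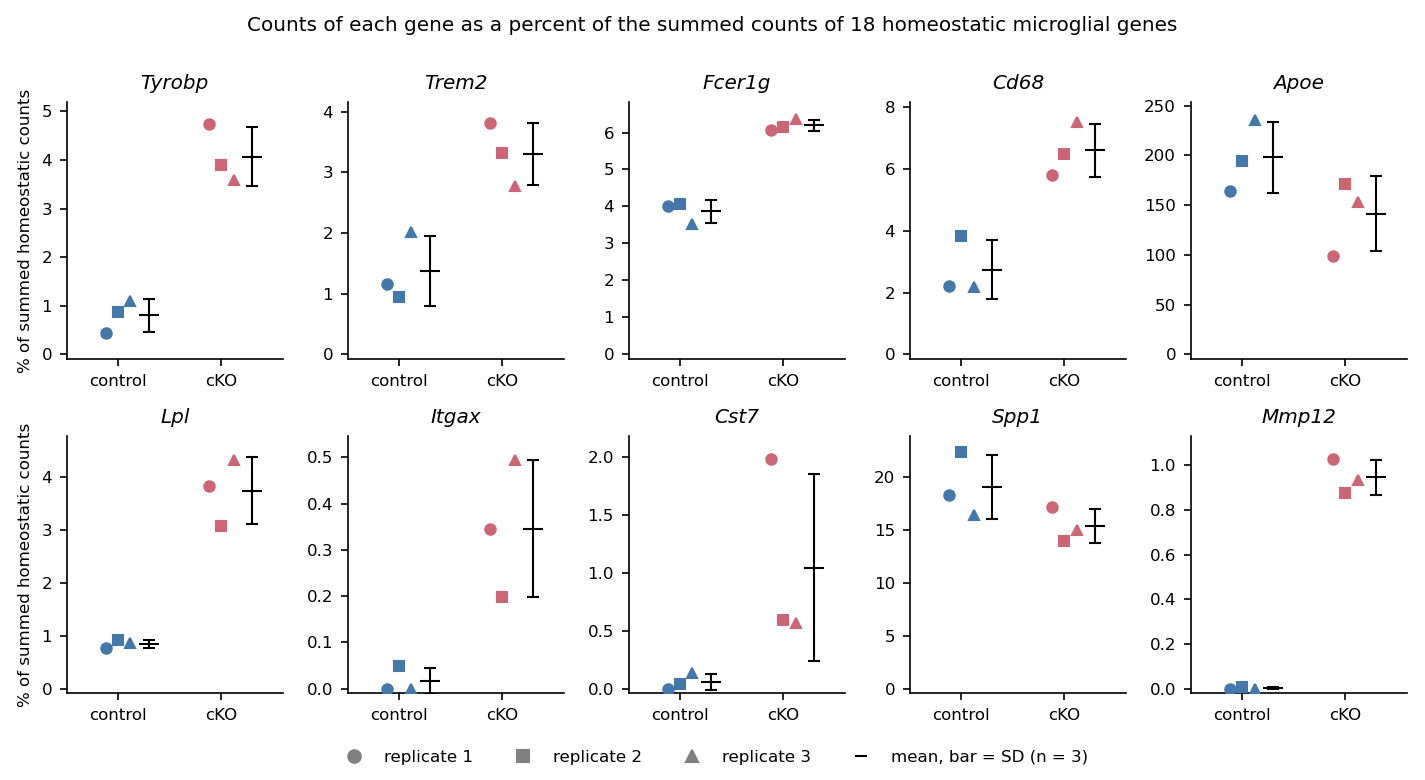
Counts of each gene as a percent of the summed counts of 18 homeostatic microglial genes in the same library (linear axes), with the mean and SD (n = 3). The groups stay apart for 8 genes, and the cKO libraries of Fcer1g and Mmp12 lie closer together than in CPM.

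A minority of the signalling genes around the adaptors was called. Of 15 other receptors that use TYROBP or FCER1G, 9 were tested, and 2 rose, Itgb2, the integrin chain CD18 (log2 fold change 1.39, SE 0.37, edgeR adjusted p = 0.0497), and Fcgr4, an activating Fc receptor (4.65, SE 1.20, edgeR adjusted p = 0.042). With 1 library left out, Itgb2 was called only without control 2 and Fcgr4 in none of the 6 fits, with adjusted p up to 0.157 and 0.166 over all alternatives. Fcgr4 passed the filter on low counts only through the cKO libraries, so a difference was built into its being tested. Of 19 kinases, phosphatases and their adaptors tested, 2 rose, Ptpn6, the phosphatase SHP-1 (2.06, SE 0.47, edgeR adjusted p = 0.027), and Plcg2, the phospholipase below TREM2 (1.85, SE 0.48, edgeR adjusted p = 0.042). Ptpn6 was not called without control 1, control 2, cKO 1 or cKO 2 (adjusted p up to 0.134 over all alternatives), and Plcg2 was called only without cKO 2 (up to 0.174). The median log2 fold change was 0.62 for the receptors and 0.93 for the signalling genes, and 0 of either were called as lower. By edgeR 5 receptors had an unadjusted p under 0.05, of which Itgb2, Fcgr4 and Fcgr3 were higher in cKO. Fcgr1 was lower, at 8.29 CPM in control and 5.71 CPM in cKO (-0.54, edgeR adjusted p = 0.13). Cd300lb was lower too, at 0.188 CPM in control and 0.0339 CPM in cKO (-2.44, edgeR adjusted p = 0.15).

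Among 45 other genes of disease-associated microglia, 10 rose and 0 fell. Of those 10, Clec7a, Ccl3, Lilrb4 and Ch25h passed the filter on low counts only through the cKO libraries. For these a difference was built into being tested. Fabp3, a fatty acid carrier that other cells express as well, averaged 32.7 ± 5.1 CPM in control and 114.4 ± 22 CPM in cKO, at a log2 fold change of 1.80 (SE 0.16, edgeR adjusted p = 2.5e-04). Clec7a, the beta-glucan receptor dectin-1, was at 0.0611, 0.146 and 0.0649 CPM in control and at 2.08, 0.841 and 1.40 CPM in cKO, with a log2 fold change of 3.97 (SE 0.61, edgeR adjusted p = 0.0037). Ctsz, a lysosomal cathepsin, rose by 0.92 (SE 0.15, edgeR adjusted p = 0.0060). The calls of Fabp3, Clec7a and Ctsz were kept in all 15 other settings and sample sets. The median over the 45 genes was 0.44, and 35 were not called. Leaving out 1 library gave 4 called genes without control 2, 5 without cKO 1, 6 without cKO 3 and 7 to 9 without the others.

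The partners of Apoe, Lpl, Spp1 and Mmp12 were read from 3 further lists. Of 23 genes of lipid handling, 0 rose, and Lrp8, an Apoe receptor of neurons, fell by 0.78 on the log2 scale (SE 0.10, edgeR adjusted p = 0.0015), from 179.9 ± 16 to 104.8 ± 7.5 CPM, with a list median of -0.03. Of 10 osteopontin receptor genes, 1 rose, Itga5, the alpha chain of the fibronectin receptor, at 1.82 CPM in control and 6.39 CPM in cKO, with a log2 fold change of 1.81 (SE 0.28, edgeR adjusted p = 0.0041). Both calls were kept in all 15 other settings and sample sets. Of 17 extracellular proteases and inhibitors, 2 rose, the metalloprotease Mmp19 (1.80, edgeR adjusted p = 0.031) and the serpin Serpina3n (1.26, edgeR adjusted p = 0.031), a gene that reactive astrocytes also express. With 1 library left out, Mmp19 was called only without cKO 2 (adjusted p up to 0.138 over all alternatives), and Serpina3n was not called without control 2, cKO 1 or cKO 3 (up to 0.110).

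**Figure D5:**
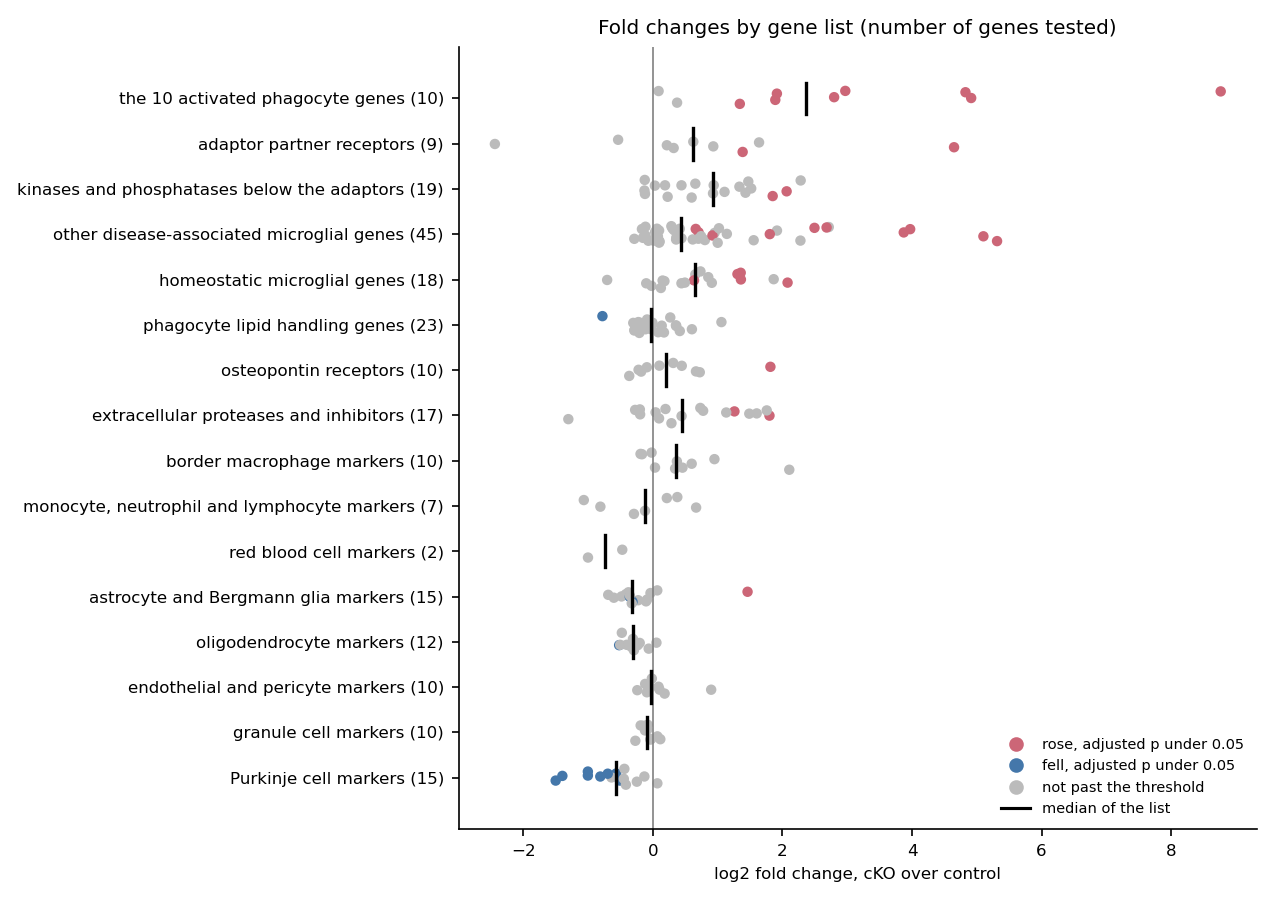
Log2 fold changes of cKO over control for every tested gene of the 10 and of 15 other lists, 1 point per gene, with the list median as a black bar, calls that rose in red and calls that fell in blue. The 10 genes have the highest median, at 2.36, and the Purkinje markers the lowest of the lists with 10 or more tested genes, at -0.57.

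Markers of other cells that could carry the 10 genes were not called. Of 10 markers of border macrophages, the phagocytes of meninges and vessels, 0 rose and 0 fell by edgeR, with a median log2 fold change of 0.36. Ms4a7 alone had an unadjusted p under 0.05, with a log2 fold change of 2.11 (SE 0.83, edgeR adjusted p = 0.165), at means of 0.078 CPM in control and 0.341 CPM in cKO and no overlap between groups. The summed level of the 10 markers was 7.96 to 11.4 CPM in control and 10.5 to 13.3 CPM in cKO. The most abundant, Mrc1 and Stab1, had log2 fold changes of 0.34 and 0.03. Mrc1 too was higher in every cKO library, at 1.73 to 2.13 CPM in control and 2.20 to 2.87 CPM in cKO. That made 2 of 10 markers without overlap, beside 15.0% of all genes tested. Of 7 tested markers of monocytes, neutrophils and lymphocytes, 0 were called by edgeR and 0 had an unadjusted p under 0.05. The sum over all 13 matched rows of the list was 0.993 to 2.63 CPM in control and 1.66 to 2.32 CPM in cKO. Log2 fold changes were -0.29 for S100a9 and -0.81 for Ngp, the most abundant. The remaining rows were too low to be tested. Among them Camp was at 0.0076, 0.0139 and 0.0072 CPM in control and higher in cKO, at 0.129, 0.190 and 0.049 CPM. Ly6c2 had a lower mean in cKO, 0.0084 CPM against 0.0122 CPM. Of the B cell markers, Ms4a1 was at 0 in every library, while Cd79a had reads in every library, with means of 0.282 CPM in control and 0.328 CPM in cKO. Of the 2 red blood cell markers tested by edgeR 0 were called (1 had an unadjusted p under 0.05), and 4 globin rows (Hba-a1, Hba-a2, Hbb-b1 and Hbb-b2) were listed at 0 in all libraries. The globin row Beta-s was at 5.83 to 14.6 CPM in control and 6.62 to 9.21 CPM in cKO. Alas2, the erythroid enzyme of heme synthesis, averaged 1.88 CPM in control and 0.936 CPM in cKO. Beta-s and Alas2 thus had reads in both groups, and the cells that these came from were not tested.

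Neural markers in the same libraries moved as follows. Of 15 astrocyte and Bergmann glia markers, 1 rose, Gfap, at 44.4 CPM in control and 122.1 CPM in cKO, with a log2 fold change of 1.46 (SE 0.21, edgeR adjusted p = 0.0024). The other called markers were lower in cKO, Slc4a4 at -0.36 and Hopx at -0.32. The list median was -0.33, and 8 of the 15 had an unadjusted p under 0.05 by edgeR, all but Gfap lower in cKO. Summed levels were 5507 to 6028 CPM in control and 4117 to 4829 CPM in cKO. Much of that sum was Aldoc, at means of 3187 CPM in control and 2489 CPM in cKO. Of 12 oligodendrocyte markers, 1 fell, Trf, by 0.52. With 1 library left out, Slc4a4 was not called in any of the 6 fits, and Hopx and Trf only without control 1, with adjusted p up to 0.137, 0.202 and 0.0750 over all alternatives. Endothelial and granule cell markers, 10 each, had 0 called by edgeR and 0 and 1 at an unadjusted p under 0.05, with median log2 fold changes of -0.03 and -0.09. Among Purkinje markers Pcp2 fell by 1.40 and Car8 by 1.00 on the log2 scale. The rise of the 8 phagocyte genes thus went with lower Purkinje markers and a higher Gfap, beside a negative median of the astrocyte list. The part of cell make-up in that rise was not tested.

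The gene whose profile was closest to that of Tyrobp over the 6 libraries, of 14645 ranked, was 9530059O14Rik. Likeness was the root mean square difference of log2 levels after each gene was centred on its control mean, and it was 0.263 for this gene. Next came Fam229a at 0.272, Slc11a1, a metal transporter of phagosomes, at 0.322, Wfikkn1 at 0.331, 1810020O05Rik at 0.337 and Prnd at 0.338. Among the other 9 genes Lpl was nearest, at rank 15, then Trem2 at 95, Cd68 at 113, Itgax at 174, Cst7 at 258 and Fcer1g at 361. Spp1, Apoe and Mmp12 stood at ranks 2041, 3793 and 4263, the first pair with little change and Mmp12 with a larger one than Tyrobp. All points come from the same 6 libraries, so the measure describes them and no more.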

How the data were processed

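Libraries were made from amplified cDNA, per the labels' protocols, so reads are not independent molecules and intervals and floors cover counting error only. For each gene and each splice junction the authors deposited an unnormalized read count in every one of 6 libraries. The tools named per the submitters' processing notes are TopHat2 (2.1.0), which the junction files' headers also name as TopHat, and HTSeq (0.6.0), with the build mm10. How HTSeq treated strand and ambiguous reads, and with which annotation, is not given in the sources used here, and values of overlapping and antisense genes are therefore uncertain.

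The 16067 genes left by filterByExpr entered edgeR 4.0.16 under R 4.3.3 (TMM scaling, quasi-likelihood test, Benjamini-Hochberg adjustment over all genes, threshold 0.05). Each group held 3 animals, and p values set the group difference against the spread between animals, an estimate that draws on all genes. Levels are CPM on scaled library sizes, SE comes from the fold change and its F statistic. Rn45s, the precursor of ribosomal RNA, held 9.56% to 13.5% of a library's counts, and 27 rows had names turned into dates.

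The 10 genes and the 15 other lists were chosen with earlier results of these data known. Of 241 list symbols 239 were matched, 3 of them by an older name. Named genes are Rbm17, the 10 genes, up to 3 called genes per list with the smallest p (or the 2 most abundant where none was called), and the 6 genes most like Tyrobp with at least 50 counts on average in cKO. Not every gene the rule takes is named. Ms4a1, Cd79a, Ms4a7, Mertk, P2ry12, Aif1, Camp and Ly6c2 were named after their values were seen. The same holds for Aldoc, Ccl3, Lilrb4, Ch25h, Fcgr1, Fcgr3 and Cd300lb. Junctions with at least 10 reads and reads in at least 2 libraries were tested with diffSpliceDGE. The tests were tried on simulated data first. Alternatives were RLE and upper quartile scaling, 2 other filters (none, or 50 counts or more in 3 libraries), limma-voom from limma 3.58.1, DESeq2 1.42.0, a replicate block, Rn45s left out, each library left out and, added after the data were seen, control 1 and cKO 1 both left out.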

Additional observations from a re-analysis of the deposited data

How the results depend on the processing

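The number of the 10 genes called, 8 with all libraries, was 7 or 8 under the other scalings, filters and tests, between 5 (without cKO 1) and 7 with 1 library left out, and 5 with control 1 and cKO 1 both left out, an alternative chosen after seeing the data. Over all genes, 1265 were called (647 rose, 618 fell), against 2042 (1020 and 1022) by DESeq2. With 1 library left out these numbers were between 530 and 1037, 264 and 501, and 238 and 555, with fewer samples in each fit. Sums over the lists, 35 called, were 54 by DESeq2 and from 18 to 31 with 1 library left out.

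Directions reversed in genes that were not called. With 1 library left out, Apoe ranged from -0.13 (without control 1) to 0.30, Stab1 from -0.070 (without control 3; also -0.06 without control 1 and without cKO 3) to 0.20, Pdgfrb from -0.20 (without cKO 3; -0.06 without control 1) to 0.32, and Cbln3 from -0.30 to 0.14 (without cKO 1; 0.07 without control 3). With control 1 and cKO 1 both left out, Apoe was at -0.074, Spp1 at -0.069 and Stab1 at -0.024. The cause was not tested.

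Same-numbered control and cKO libraries did not deviate together (r between -0.06 and 0.04). With 3 libraries per group these values gave no sign of a pairing by number, but they cannot exclude it. With the replicate block 1734 genes were called, against 1265 without it, and 8 of the 10 genes and 0 of their junctions. The block changed no call among the 10 genes and moved the count over the lists from 35 to 52.

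Low counts limit what can be said of Itgax, Cst7 and Mmp12 in control. No splice choice was tested in 6 of the 10 genes, where no pair of competing junctions passed the minimum of reads and of libraries. Itgax was not tested when 50 counts in 3 libraries were required.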
